A study of Mus musculus with 4 samples.

Results

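Bco1 and Scarb1, a gene of carotenoid cleavage and a gene of carotenoid uptake, were followed over 4 Affymetrix arrays of intestinal mucosa. Every probe set that the platform annotation lists under either gene was taken, which gave 4 of the 22626 probe sets other than controls. Bco1 had 1 probe set (1449907_at) and Scarb1 had 3 (1416050_a_at, 1437378_x_at and 1455820_x_at). Both genes were chosen with their signals on these arrays known, so their values are given as a description, with no test. The groups were A/J high-fat, A/J low-fat, C57BL/6J high-fat and C57BL/6J low-fat, all male mice labelled as 10 weeks old and kept on their diet for 2 weeks. A/J is an inbred strain known to resist obesity on fatty food, and C57BL/6J is an inbred strain known to be prone to it. A group held 6 mice, and RNA of 2 of them with a body weight near the average was combined on 1 array. With 1 pool per group there is no measure of the spread between mice, and precision is limited by the number of arrays.

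Beta-carotene and related plant pigments are taken up by enterocytes with the help of the scavenger receptor class B type I, the product of Scarb1, which also moves cholesterol and other lipids across the cell membrane. The enzyme made from Bco1 then cleaves beta-carotene in its middle to retinal, the step that makes carotenoids a source of vitamin A. Retinal is reduced to retinol and esterified for export in chylomicrons, or oxidised to retinoic acid. Retinoic acid is known to act back on uptake and cleavage through the intestinal homeobox factor Isx, which represses both genes. Isx was not analysed here.

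Bco1 and Scarb1 were both brighter in A/J than in C57BL/6J on either diet, and both were dimmer on the A/J high-fat array than on the A/J low-fat array. In C57BL/6J the genes parted: Bco1 was 3.03-fold lower on high-fat than on low-fat, and Scarb1 was 1.56-fold higher. The signal is the linear Microarray Suite intensity of a probe set, and each array was scaled to a trimmed mean of 500. A scaled signal of 100 served as the floor for ratios, and all 4 probe sets lay above it on every array. In RNA of whole mucosa, fewer cells of a type and less RNA per cell cannot be told apart.

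The Bco1 probe set had a deposited signal of 711.6 on the A/J high-fat array and 3402.2 on A/J low-fat; it had 64.0 on C57BL/6J high-fat and 215.3 on C57BL/6J low-fat. After scaling, these were 1995 and 9248 for A/J high-fat and low-fat, and 218 and 662 for C57BL/6J high-fat and low-fat. The A/J signals both lay above the C57BL/6J signals, and within each strain the high-fat array was the dimmer one. High-fat over low-fat, the log2 ratio was -2.21 in A/J, which is a 4.64-fold lower signal, and -1.60 in C57BL/6J. A/J over C57BL/6J, the log2 ratio was 3.19 on high-fat (9.14-fold) and 3.80 on low-fat (14.0-fold). The diet ratio in A/J was lower than that in C57BL/6J by a factor of 1.53.

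The promoter of Bco1 is shown because Bco1 was the member with a lower signal on high-fat in both strains, and because its last bases before the start carry an element known to bind nuclear receptors. Of the 2 genes, 1 matched the RefSeq promoter table (GRCm38.p6); Scarb1 did not match. The 250 bases before the annotated Bco1 start, at chr8:117095615-117095864 on the plus strand, read as follows, with matches to the searched motifs in capitals.
Bco1: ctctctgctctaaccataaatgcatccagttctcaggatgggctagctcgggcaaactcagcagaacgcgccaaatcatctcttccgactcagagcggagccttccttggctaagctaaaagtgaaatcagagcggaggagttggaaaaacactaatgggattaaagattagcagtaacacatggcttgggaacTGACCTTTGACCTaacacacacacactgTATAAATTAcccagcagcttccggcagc

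The first capitals are TGACCTTTGACCT, the reverse complement of AGGTCA, any 1 base and AGGTCA again. This direct repeat is the arrangement that heterodimers of peroxisome proliferator-activated receptors with retinoid X receptors are known to bind. It lay at positions -56 to -44, where -1 is the base before the start. The search read both strands and counted exact matches only, so repeats with a mismatch are left out. The promoter was shown in part because it carries the repeat, so the share that follows is no test. The repeat was present in 11 of 32851 promoter windows of the same length (0.0335%). These windows belong to 11 genes, 3 of them measured on the arrays. In the other two, Isca1, a gene of iron-sulfur cluster assembly, and Etohd2, whose signal was near the floor, every log2 ratio between arrays lay between -0.17 and 0.13. The second run of capitals joins TATAAA at -28 to -23 with AATTA at -24 to -20, the reverse complement of the homeodomain core TAATT, and these overlap. TATAAA was present in 12.4% of the windows and TAATT in 25.0%. These matches describe letters and do not show binding.

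**Figure D1:**
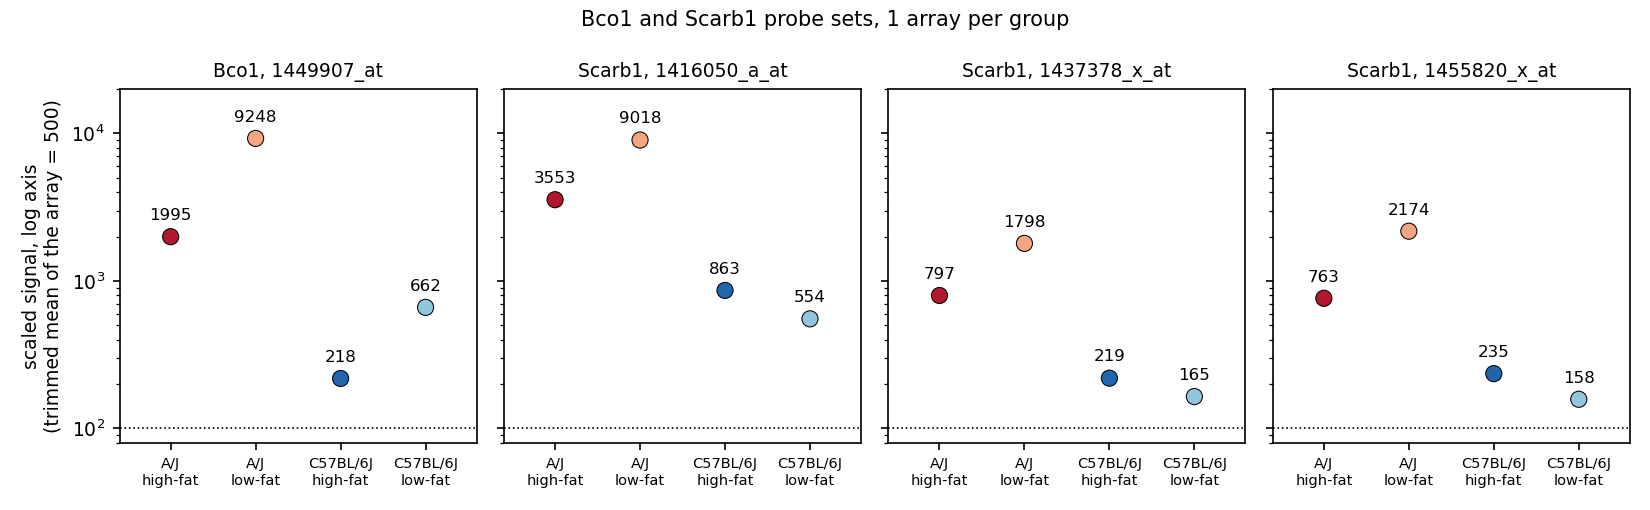
Scaled signal (log axis) of the 4 Bco1 and Scarb1 probe sets on the arrays of A/J high-fat, A/J low-fat, C57BL/6J high-fat and C57BL/6J low-fat mice. Each point is 1 array of pooled RNA with its value, the dotted line is the floor of 100, and levels are to be compared within a panel only. Every panel has its highest point at A/J low-fat, and the C57BL/6J points of Bco1 run the other way from those of the 3 Scarb1 panels.

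The brightest Scarb1 probe set, 1416050_a_at, stands for the gene in the ratios. Its deposited signal was 1267.7 on the A/J high-fat array and 3317.4 on A/J low-fat, with 253.0 on C57BL/6J high-fat and 180.0 on C57BL/6J low-fat. Scaled, the signals were 3553 and 9018 for A/J high-fat and low-fat, and 863 and 554 for C57BL/6J high-fat and low-fat. A/J was again above C57BL/6J throughout, and the high-fat array was the lower one in A/J and the higher one in C57BL/6J. The log2 ratio of high-fat over low-fat was -1.34 in A/J (2.54-fold lower) and 0.64 in C57BL/6J (1.56-fold higher).

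The other two Scarb1 probe sets, whose x_at suffix marks probes shared with other sequences, gave the same order of the 4 arrays. For 1437378_x_at the scaled signals were 797 and 1798 on A/J high-fat and low-fat, and 219 and 165 on C57BL/6J high-fat and low-fat. For 1455820_x_at they were 763 and 2174 on A/J high-fat and low-fat, and 235 and 158 on C57BL/6J high-fat and low-fat. High-fat over low-fat, the 3 probe sets were 2.26-fold to 2.85-fold lower in A/J and 1.33-fold to 1.56-fold higher in C57BL/6J. A/J over C57BL/6J, they were 3.24-fold to 4.12-fold higher on high-fat and 10.9-fold to 16.3-fold higher on low-fat. Probe sets of 1 gene share the RNA pools, so their likeness says nothing of the spread between mice.

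Set beside the 8036 measured genes, those whose scaled signal averaged 100 or more, the members lay near the ends of the strain ratios. Among the 7560 genes above the floor on both low-fat arrays, Scarb1 had the highest ratio of A/J over C57BL/6J and Bco1 came next. A further 256 genes were below the floor in C57BL/6J low-fat only and have just a lower bound, so their exact place is not known. Pck1, the enzyme PEPCK of gluconeogenesis, is 1 of them, at least 15.4-fold higher and so above Bco1. Among the 7493 genes above the floor on both high-fat arrays, Bco1 had the highest ratio and Scarb1 was in place 16. A further 227 genes have just a lower bound there. Of these, Defa31, at least 172-fold higher, and Pck1, at least 13.6-fold higher, lay above the 9.14-fold of Bco1. Being at least 2-fold higher in A/J was a call made for 3.0% of the measured genes on low-fat and for 1.93% on high-fat. The strain difference of Bco1 was 14.0-fold on low-fat against 9.14-fold on high-fat, and that of Scarb1 was 16.3-fold against 4.12-fold.

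With signals under the floor set to it, Bco1 was in place 6 from the bottom among the C57BL/6J diet ratios, and 0.672% of the genes had a high-fat signal at least 2-fold lower. In A/J, where 1.05% were at least 2-fold lower, 18 genes had a lower ratio than Bco1 and 38 had a lower ratio than Scarb1. Of the 18 genes, 11 were digestive enzymes and other secretory genes on an exocrine pancreas list, and 2 were on a stomach list. Scarb1 in C57BL/6J was in place 336 from the top, and a high-fat signal at least 1.5-fold higher was a call made for 5.13%. The difference of the diet ratios, A/J minus C57BL/6J, was -1.98 on the log2 scale for Scarb1, in place 26 from the bottom, and 2.13% of the genes had a difference of -1 or lower. For Bco1 the difference was -0.61, in place 650 from the bottom.

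The combination of these ratios was shared by few other genes; the cut-offs in this paragraph were set after the values of the members were seen. A strain ratio of at least 2-fold toward A/J on both diets was held by 90 genes (1.12%). Of those, 2 (0.0249% of all) were also at least 2-fold lower on A/J high-fat than on A/J low-fat, and these were Bco1 and Scarb1. Genes short of that last cut-off had the same directions, among them Slc13a2 and Akr1c14, described below. For Slc13a2 the A/J diet ratio was 1.92-fold toward low-fat. Its strain ratios toward A/J were 3.25 (high-fat arrays) and 5.25 (low-fat arrays). The matching values of Akr1c14 were 1.60, 2.89 and 8.86. At least 2-fold lower on high-fat in both strains were 8 genes (0.0996%), Bco1 among them, with Ifit2, Mbl2, Trim30a, Fank1, Stk10 and 2 immunoglobulin light chain segments. At least 2-fold lower on high-fat in A/J and at least 1.5-fold higher in C57BL/6J were 21 genes (0.261%), Scarb1 among them. Of these 21, 11 were on the exocrine pancreas list and 2 on the stomach list.

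**Figure D2:**
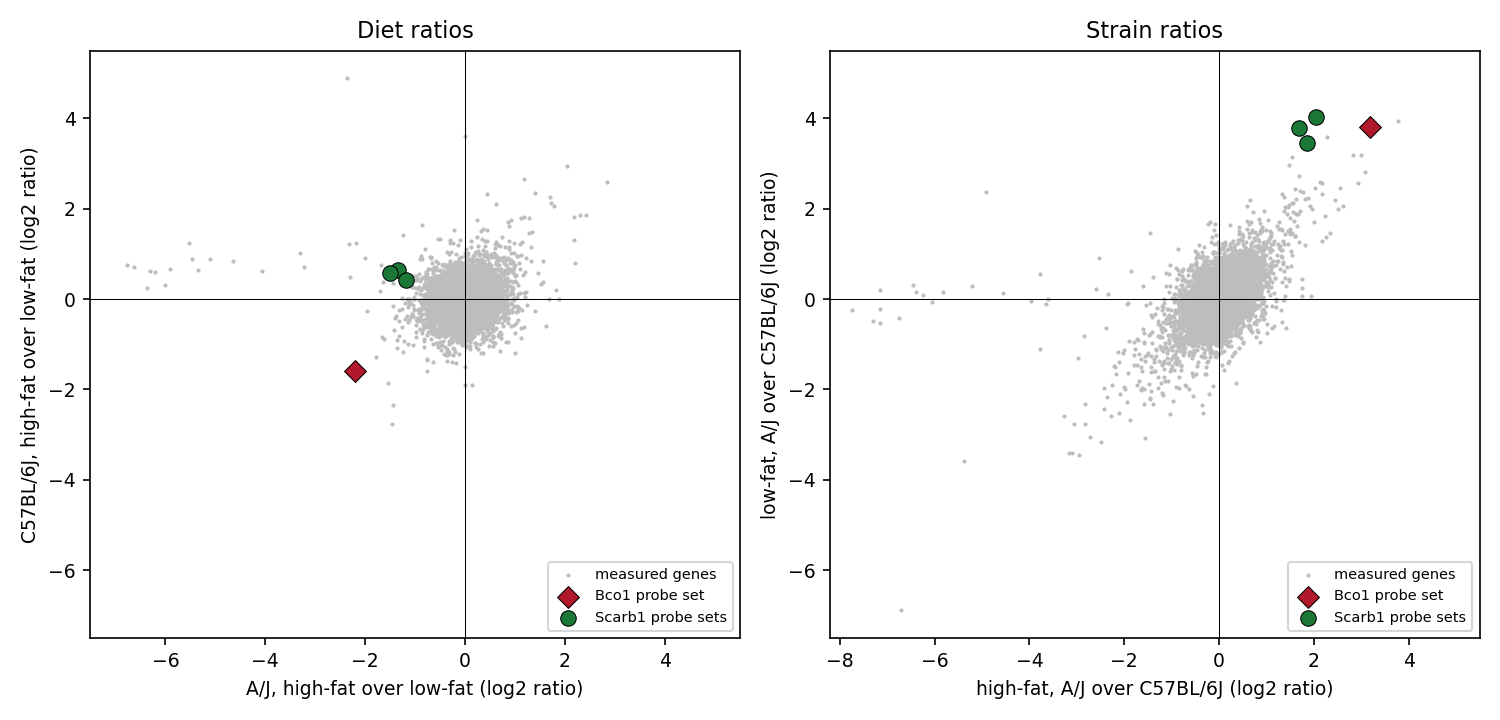
Log2 ratios of the 8036 measured genes (grey), the Bco1 probe set (diamond) and the 3 Scarb1 probe sets (circles). Genes past the end of an axis, Defa31 among them on both horizontal axes, are not drawn. The left panel sets high-fat over low-fat in A/J (horizontal) against C57BL/6J (vertical), and the right panel sets A/J over C57BL/6J on high-fat (horizontal) against low-fat (vertical). Bco1 lies at -2.21 and -1.60 on the left, Scarb1 lies left of 0 and above 0 there, and all 4 probe sets lie at the upper right edge of the right panel.

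From bright to dim, Bco1 had A/J low-fat first and then A/J high-fat, followed by C57BL/6J with low-fat before high-fat, an order held by 7.14% of the 7227 genes that were above the floor on every array. For each Scarb1 probe set the last 2 changed places, an order held by 7.25%. The genes with the most similar pattern were sought among the 7226 others by the root mean square difference of log2 signals over the 4 arrays, each gene centred on its own mean. Nearest to Bco1 was Slc5a4a of the sodium-glucose cotransporter family, at 0.87, with 1611 and 2243 on A/J high-fat and low-fat, and 263 and 534 on C57BL/6J high-fat and low-fat. Scarb1 came next, at 0.88. Then followed Slc13a2, a sodium-dicarboxylate cotransporter, the class Ib histocompatibility gene H2-T18 and Wdfy1, at 0.98 to 1.02.

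Nearest to Scarb1 was Akr1c14, an aldo-keto reductase that acts on steroids, at 0.43. Its signals were 638 and 1019 on A/J high-fat and low-fat, and 221 and 115 on C57BL/6J high-fat and low-fat, so it too was lower on high-fat in A/J and higher on high-fat in C57BL/6J. H2-Bl, the actin regulator Cap1, H2-T18 and Slc13a2 came next, at 0.56 to 0.60. Bco1 was in place 31 for Scarb1. All these profiles come from the same 4 pools, and their likeness carries no test.

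The other genes of carotenoid and retinoid handling were taken from 4 lists of 104 genes, 71 of them measured. The lists were written with earlier results of these data known. Strain and diet effects were fitted with limma over all genes as additive terms, each term comparing 2 arrays with 2 arrays. A gene's own error term is the strain-by-diet difference, with 1 residual degree of freedom. limma draws this error toward a value pooled over all measured genes, so small p-values rest in part on the other genes. The p-values measure no spread between mice. At a Benjamini-Hochberg adjusted p under 0.05, limma called 10 of the 71 genes higher and 1 lower in A/J than in C57BL/6J. Over all measured genes it called 3.83% higher and 3.68% lower. For diet, 5 of the 71 were called higher and 1 lower on high-fat, against 0.423% and 0.187% of all genes. With the floor at 200, or with no filter on mean signal, limma made none of these calls, and 15 to 17 of the genes then had an unadjusted p under 0.05 for either term. In the fit as reported that threshold was met by 21 of the 71 genes for each term, against 21.5% of all genes for strain and 9.35% for diet.

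Of the 22 measured genes of the retinoid metabolism list, limma called 6 higher and 1 lower in A/J, where it called 3.83% and 3.68% of all genes. The list's median strain effect was 0.37 on the log2 scale, where the median over all measured genes was 0.04. The gene called lower was Bco2, the mitochondrial enzyme that cleaves carotenoids off centre. Its scaled signals were 569 and 801 on A/J high-fat and low-fat, and 1824 and 1873 on C57BL/6J high-fat and low-fat. A/J was lower than C57BL/6J on each diet, in the opposite direction to Bco1. The strain effect of Bco2 was -1.45 (SE 0.205, limma adjusted p = 0.000826). Its diet effect was -0.27 (limma adjusted p = 0.792).

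Genes downstream of the cleavage were among those higher in A/J. Lrat, which esterifies retinol for storage and export, gave 516 and 624 on A/J high-fat and low-fat, and 200 and 131 on C57BL/6J high-fat and low-fat. The strain effect was 1.81 (log2; SE 0.233, limma adjusted p = 0.00043), with A/J above C57BL/6J on both diets. Within the strains its diet ratios had the signs of those of Scarb1, at -0.28 in A/J and 0.61 in C57BL/6J, and the diet effect was 0.17 (limma adjusted p = 0.906).

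Retsat, which saturates retinol, had 6521 and 4121 on A/J high-fat and low-fat, and 2651 and 1411 on C57BL/6J high-fat and low-fat. It was higher in A/J by 1.42 (SE 0.198, limma adjusted p = 0.000731). The retinol-oxidising alcohol dehydrogenase Adh4 had 2530 and 1463 on A/J high-fat and low-fat, and 690 and 310 on C57BL/6J high-fat and low-fat. It was higher in A/J by 2.06 (SE 0.201, limma adjusted p = 5.99e-05). In both genes, unlike in Bco1, the high-fat array was the higher one in each strain, with diet effects of 0.79 for Retsat (limma adjusted p = 0.150) and 0.97 for Adh4 (limma adjusted p = 0.0607). The retinol dehydrogenase Rdh16 had 250 and 288 on A/J high-fat and low-fat and was below the floor on both C57BL/6J arrays, so its strain effect was at least 1.42. Dhrs4, a reductase of retinal, was higher in A/J by 0.73 (SE 0.196, limma adjusted p = 0.0423).

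The retinaldehyde dehydrogenase Aldh1a1, which makes retinoic acid, passed the test for both terms. Its signals were 6206 and 3277 on A/J high-fat and low-fat, and 3424 and 1023 on C57BL/6J high-fat and low-fat. It rose by 1.33 on high-fat (SE 0.227, limma adjusted p = 0.0226) and was higher in A/J by 1.27 (SE 0.227, limma adjusted p = 0.00455). Its close relative Aldh1a7, whose probes may read some of the same RNA, rose on high-fat (limma adjusted p = 0.00649), with log2 ratios of 1.17 in A/J and 1.83 in C57BL/6J. These 2 genes were the only diet calls in this list, with 0 lower by limma at the adjusted threshold and 6 of 22 at an unadjusted p under 0.05. For all measured genes, limma called 0.423% higher and 0.187% lower on high-fat, and 9.35% had an unadjusted p under 0.05. The diet direction of Aldh1a1 and Aldh1a7 was opposite to that of Bco1. Rbp2, the binding protein that carries retinol in enterocytes, had 18250 and 17105 on A/J high-fat and low-fat, and 17045 and 10382 on C57BL/6J high-fat and low-fat, with neither term past the threshold.

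Of the scavenger receptors and partners of the Scarb1 product, 9 were measured. Where limma called 3.83% of all measured genes higher and 3.68% lower in A/J, and 0.423% higher and 0.187% lower on high-fat, 1 of the 9 was called, for both terms. This was Cd36, the fatty acid transporter of the same receptor family, which also aids carotenoid uptake. Its signals were 2891 and 1193 on A/J high-fat and low-fat, and 364 and 131 on C57BL/6J high-fat and low-fat. Cd36 was higher in A/J by 3.09 (SE 0.196, limma adjusted p = 2.79e-06) and rose on high-fat by 1.37 (SE 0.196, limma adjusted p = 0.00624). Like Scarb1, Cd36 was brighter in A/J on both diets, and unlike Scarb1 it was brighter on A/J high-fat than on A/J low-fat. In a second Cd36 probe set the log2 ratio of high-fat over low-fat was 0.97 for A/J and 2.23 for C57BL/6J, and the third was below the floor on both C57BL/6J arrays.

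The remaining family member Scarb2, a lysosomal protein, gave strain and diet effects of 0.48 and 0.45 (limma adjusted p = 0.178 and 0.499). Pdzk1, the scaffold that holds the Scarb1 product at the membrane in mouse liver, had 4325 and 4485 on A/J high-fat and low-fat, and 4712 and 4079 on C57BL/6J high-fat and low-fat. The effects on Pdzk1 were 0.01 for strain and 0.08 for diet, neither past the threshold. Cav1, the coat protein of caveolae, was 2.07-fold lower on A/J high-fat than on A/J low-fat and 1.44-fold higher on C57BL/6J high-fat than on low-fat, and passed neither test.

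The regulators held 20 measured genes, with 1 call for strain and 1 for diet. Over all measured genes, limma called 3.83% higher and 3.68% lower in A/J, and 0.423% higher and 0.187% lower on high-fat. Ppara, the nuclear receptor of fatty acids, had 541 and 387 on A/J high-fat and low-fat, and 293 and 203 on C57BL/6J high-fat and low-fat, and was higher in A/J by 0.91 (SE 0.195, limma adjusted p = 0.0136). Nr0b2, a corepressor induced by bile acids, had 329 and 180 on A/J high-fat and low-fat, with 307 on C57BL/6J high-fat, while C57BL/6J low-fat was below the floor. It rose by at least 1.25 on high-fat (limma adjusted p = 0.0301). Cdx2, the intestinal homeobox factor, had 2863 and 2981 on A/J high-fat and low-fat, and 1698 and 2100 on C57BL/6J high-fat and low-fat, a strain effect of 0.63 (limma adjusted p = 0.0773). Hnf4a, a general enterocyte factor, had strain and diet effects of -0.11 and -0.10.

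Of the sterol and carotenoid transport list, 20 genes were measured. Lipoprotein lipase, Lpl, had 390 and 180 on A/J high-fat and low-fat, and 218 and 110 on C57BL/6J high-fat and low-fat, and passed for both terms, with 1.05 for diet (limma adjusted p = 0.0345) and 0.78 for strain (limma adjusted p = 0.0323). Its signal on C57BL/6J low-fat was near the floor, and a second Lpl probe set was below the floor on every array. Apoa2, an apolipoprotein of high-density lipoprotein, was higher in A/J by 0.88 (limma adjusted p = 0.0172). The efflux pump Abca1 fell on high-fat, as its diet effect was -1.17 (SE 0.228, limma adjusted p = 0.0419). It had 275 and 465 on A/J high-fat and low-fat, and 254 and 765 on C57BL/6J high-fat and low-fat. In a second Abca1 probe set the log2 ratio of high-fat over low-fat was -0.15 for A/J and -0.82 for C57BL/6J, and the third was below the floor on every array. The chylomicron genes Apob and Mttp, which package absorbed lipid with its carotenoids and retinyl esters, had strain effects of 0.06 and -0.03 and diet effects of -0.09 and 0.26, none past the threshold.

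By size alone, a ratio of at least 2-fold between the low-fat arrays was seen for 8 of the 71 genes toward A/J and for 1 toward C57BL/6J, where 3.0% and 2.64% of all genes had one. Between the high-fat arrays 5 were higher and 1 lower in A/J, against 1.93% and 2.38% of all genes. For A/J high-fat over A/J low-fat 3 were higher and 1 lower, against 0.796% and 1.05%. For C57BL/6J high-fat over C57BL/6J low-fat 5 were higher and 1 lower, against 1.02% and 0.672%. At 1.5-fold, 18 were higher and 2 lower in A/J between the low-fat arrays, against 10.9% and 9.23% of all genes. Between the high-fat arrays 14 were higher and 1 lower, against 8.37% and 6.88%. The diet ratios at 1.5-fold gave 11 higher and 3 lower in A/J, against 4.99% and 4.7%, and 14 higher and 2 lower in C57BL/6J, against 5.13% and 4.63%.

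**Figure D3:**
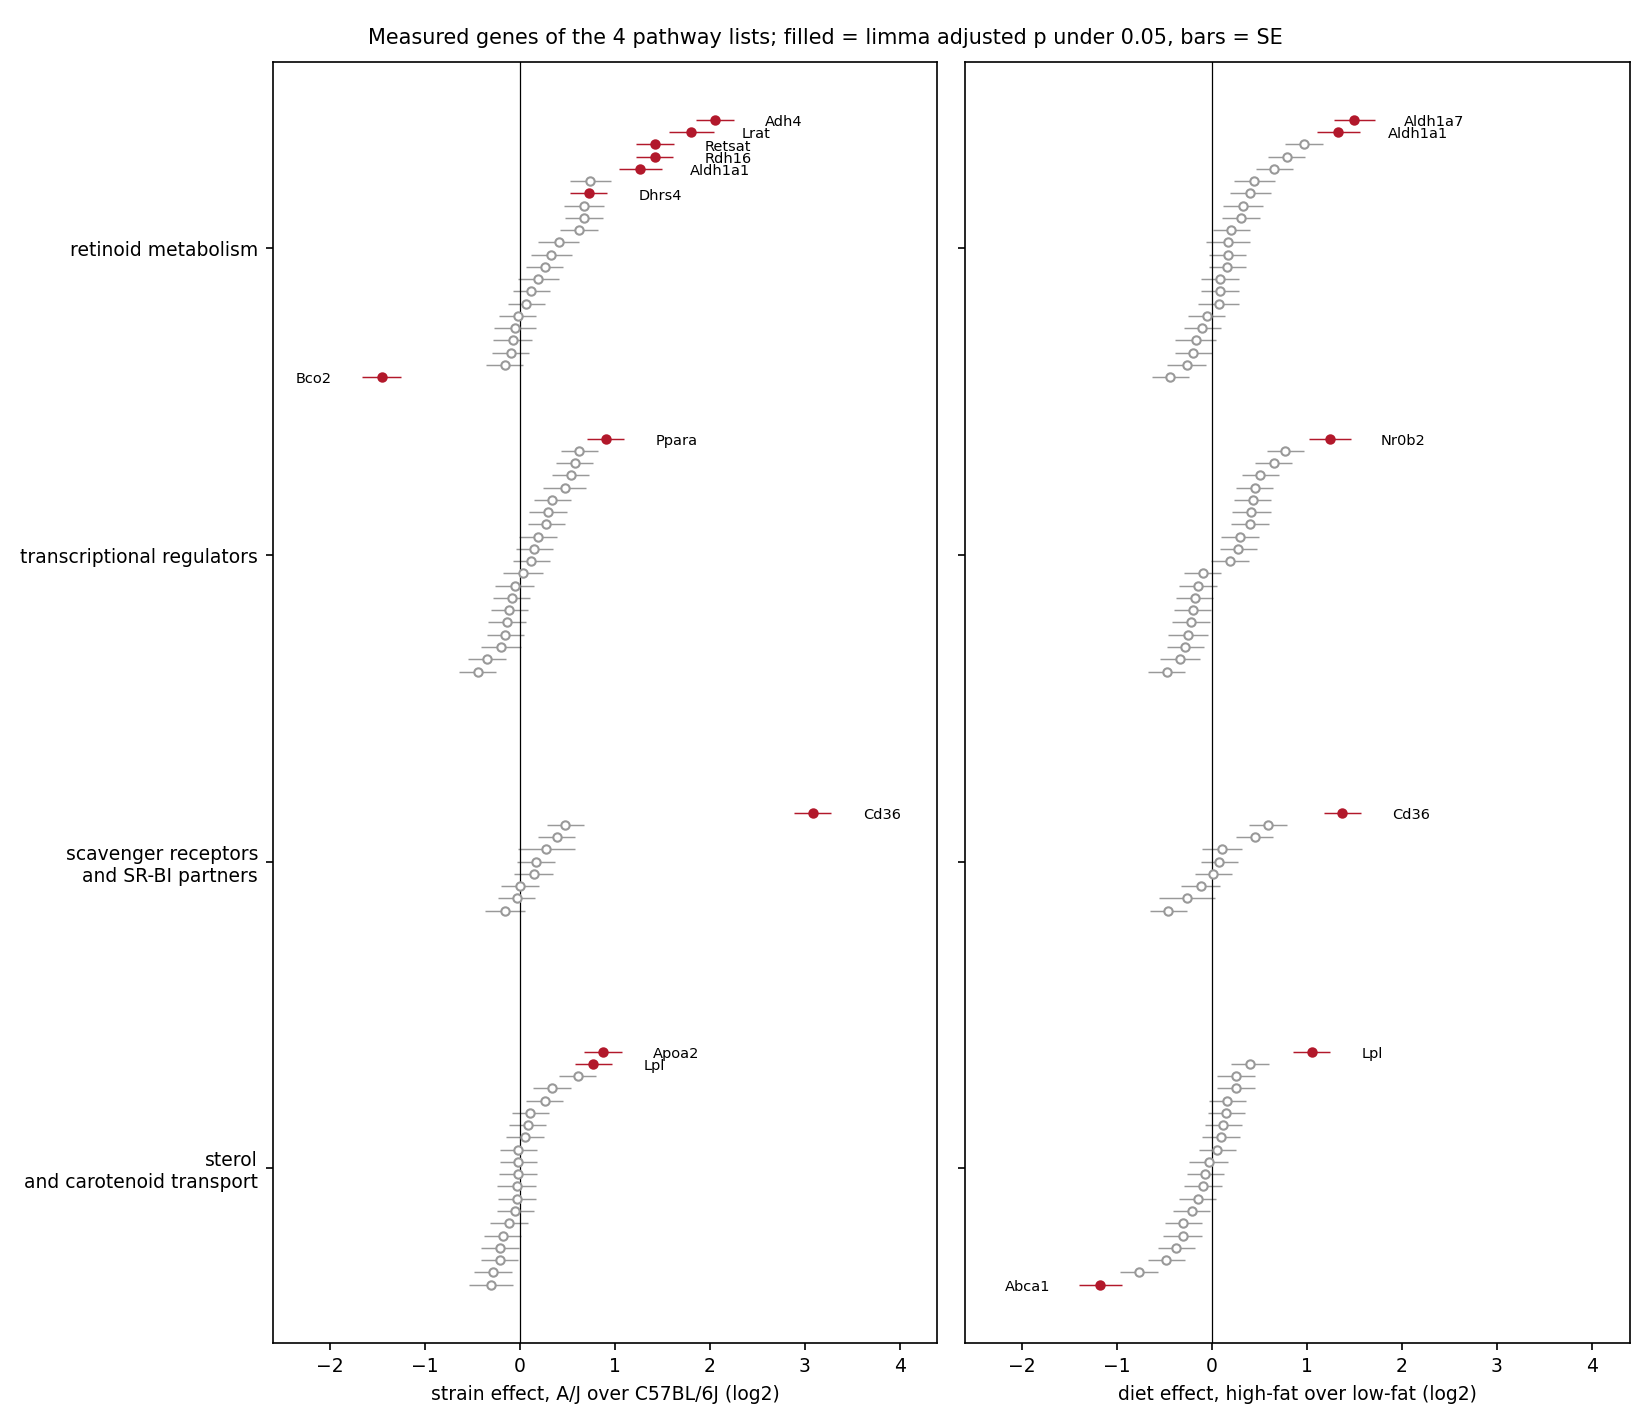
Strain effects (left, A/J over C57BL/6J) and diet effects (right, high-fat over low-fat) on the log2 scale for the 71 measured genes of the 4 lists, from limma over 4 arrays. Each point is 1 gene with its SE, and filled points with a name passed an adjusted p of 0.05. Rdh16 on the left and Nr0b2 on the right are lower bounds, and Bco2 is the named point below 0 on the left, at -1.45.

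Markers were read for the tissue and for other cells in the pools. All 10 enterocyte markers found were above the floor on every array. The summed scaled signal of this list was 109125 and 113487 on A/J high-fat and low-fat, and 116082 and 112689 on C57BL/6J high-fat and low-fat. A sum over several genes hides how single ones vary. The villin gene Vil1 had 11616 and 12411 on A/J high-fat and low-fat, and 12732 and 12909 on C57BL/6J high-fat and low-fat. Mep1a, a brush border meprin subunit on the list, had 3231 and 1853 on A/J high-fat and low-fat, and 1628 and 1169 on C57BL/6J high-fat and low-fat, and was the 1 of the 10 called for strain, higher in A/J by 0.83 (limma adjusted p = 0.0267). Among all measured genes, limma called 3.83% higher and 3.68% lower in A/J. Proximal small intestine markers, all 8 of them above the floor on every array, summed to 24076 and 26891 on A/J high-fat and low-fat, and to 20815 and 22062 on C57BL/6J high-fat and low-fat. Slc10a2 and Fabp6, the bile acid transporter and binding protein of the ileum, were below the floor on all arrays. Of the 6 colon markers found, 4 were below the floor on all arrays, Aqp8 was above it on both high-fat arrays, and Car4 was above it on every array. Car4, a carbonic anhydrase, had 1539 and 837 on A/J high-fat and low-fat, and 833 and 375 on C57BL/6J high-fat and low-fat. It was called for strain (1.02, limma adjusted p = 0.00742) and for diet (1.02, limma adjusted p = 0.0421). Of the 8 hepatocyte markers found, 6 to 8 were below the floor on each array, Alb on all of them, and the highest signal was 134, for Apoh on C57BL/6J low-fat. Of the 8 distal markers found, 3 were below the floor on each array, and the summed signals were 10544 and 10042 on A/J high-fat and low-fat, against 6632 and 8256 on C57BL/6J high-fat and low-fat. Cubn, the cubilin receptor on that list, had 2595 and 3921 on A/J high-fat and low-fat, and 887 and 901 on C57BL/6J high-fat and low-fat. Single distal markers did not all follow the sums. Pyy had 475 and 250 on A/J high-fat and low-fat, and 353 and 532 on C57BL/6J high-fat and low-fat. Over the 5 measured distal markers, the median log2 ratio of A/J over C57BL/6J was 0.43 on high-fat and -0.07 on low-fat.

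Markers of other tissue differed between the arrays. The 12 exocrine pancreas genes found summed to 3032 on A/J high-fat against 99066 on A/J low-fat; they summed to 157645 on C57BL/6J high-fat against 99258 on C57BL/6J low-fat, and 5 of the 12 were below the floor on A/J high-fat. Their share of all signal was 0.0264% on A/J high-fat against 0.971% on A/J low-fat, and it was 1.57% on C57BL/6J high-fat against 0.959% on C57BL/6J low-fat. On A/J high-fat this list, Bco1 and Scarb1 were all lower than on A/J low-fat. For C57BL/6J high-fat over low-fat, the list was higher, as Scarb1 was and Bco1 was not. The 8 stomach markers found summed to 1437 on A/J high-fat against 3467 on A/J low-fat, and to 9677 on C57BL/6J high-fat against 2060 on C57BL/6J low-fat, the signs of the Scarb1 diet ratios. Of these, Gkn2, a gastrokine, had 39.2 on A/J high-fat against 517 on A/J low-fat; it had 3001 on C57BL/6J high-fat against 38.1 on C57BL/6J low-fat. From 3 to 6 of the 8 stomach markers were below the floor on each array. The part of both lists in the diet ratios of Bco1 and Scarb1 was not tested. Between the low-fat arrays the pancreas sums were 99066 in A/J and 99258 in C57BL/6J, and the strain ratios of Bco1 and Scarb1 were 14.0-fold and 16.3-fold. The part of both lists in the strain ratios was not tested either. T cell markers summed to 4313 and 3123 on A/J high-fat and low-fat, against 7222 and 13030 on C57BL/6J high-fat and low-fat, with 2 of the 10 below the floor on each array. Single markers differed from these sums. The median log2 ratio of A/J over C57BL/6J, over the 8 measured T cell markers, was 0.09 on high-fat and -1.18 on low-fat. For 18S ribosomal RNA, the probe set at the 5' end gave 84.4 and 218 on A/J high-fat and low-fat, against 1675 and 11010 on C57BL/6J high-fat and low-fat. In the same order, the one at the 3' end gave 182 and 214 against 398 and 5012. The middle one gave 23.3 and 96.8 against 187 and 601. The control probe set CreX-3 gave 11988 and 12094 against 21250 and 19458. The control BioC-5 gave 608 and 821 against 1614 and 1201. The parts of these in the strain ratios were not tested, and whatever differs with strain here, other than the genotype, cannot be told apart from it.

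**Figure D4:**
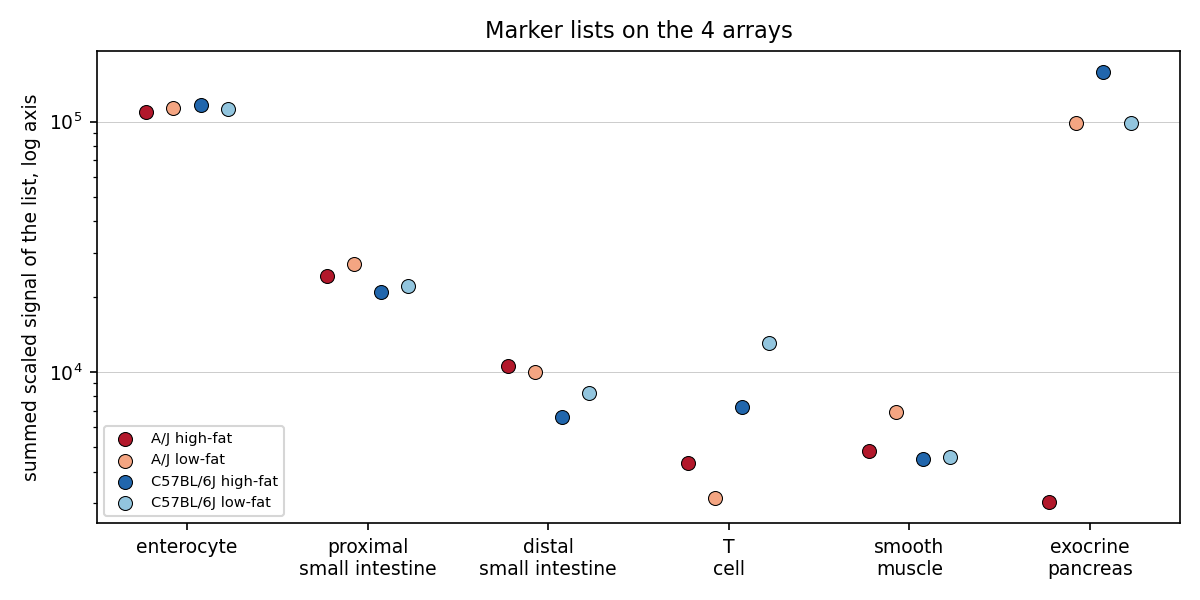
Summed scaled signal (log axis) of 6 marker lists on the 4 arrays, 1 point per array. The enterocyte sums lie between 109125 and 116082, and the exocrine pancreas sum of A/J high-fat, 3032, lies far below those of the other arrays.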

How the data were processed

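Intestinal mucosa of 4 strain-by-diet groups was measured on the Affymetrix Mouse Expression Array 430A, 1 array per group. Per the labels' protocols, the authors used Microarray Suite 5.0 with default settings to turn perfect match and mismatch signals into 1 linear intensity per transcript, which is the deposited value. No source used here gives a scaling target. The trimmed means of the arrays were 178 and 184 for A/J high-fat and low-fat, and 147 and 163 for C57BL/6J high-fat and low-fat.

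Without 64 control probe sets, each array was multiplied by a factor of 2.80, 2.72, 3.41 or 3.08 (same order) to a mean of 500, with 2% trimmed at each end. Signals under 100 were set to 100 before log2. Of 22626 probe sets, 20380 are annotated with 1 gene, 691 with several and 1555 with none; only the first were used. The probe set with the highest mean stood for each of 12393 genes, and limma 3.58.1 (R 4.3.3) was fitted to the 8036 with a mean of at least 100. In a test on simulated data, the true share of false calls often exceeded the nominal level of this fit, which has 1 residual degree of freedom. Python 3.11.15 was used otherwise. Every list member past limma's threshold or a 2-fold ratio was eligible for naming, with the 5 genes most like each member; Hnf4a, Cdx2, Pdzk1, Scarb2, Rbp2, Apob and Mttp were named for their role after their values were seen. The members and lists were chosen with earlier results of these data known. Alternatives changed scaling, floor, filter, probe set choice, model and fold.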

Additional observations from a re-analysis of the deposited data

Results flagged for a closer look

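The diet ratio of Scarb1 had opposite signs in the strains, lower on high-fat in A/J and higher on high-fat in C57BL/6J, in each of its 3 probe sets. The log2 diet ratio of A/J minus that of C57BL/6J was -1.98 for 1416050_a_at, -1.59 for 1437378_x_at and -2.09 for 1455820_x_at. The difference was not tested, since each strain had 1 array per diet and the gene was chosen with these values known.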

How the results depend on the processing

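All 45 recomputed log2 ratios and ratio differences of Bco1 and Scarb1 kept their sign and moved by less than 1.5-fold, over no scaling, quantile normalization, a pseudocount of 50, the mean of all probe sets and, chosen after seeing the data, each other Scarb1 probe set alone. Floors of 50 and 200 could not change them, since the probe sets that stand for the genes lay above 200 on every array. Over these, Scarb1 was 2.26-fold to 2.85-fold lower on A/J high-fat and 1.33-fold to 1.56-fold higher on C57BL/6J high-fat than on low-fat, and Bco1 was 4.55-fold to 5.00-fold and 2.65-fold to 3.36-fold lower. Without scaling, the median log2 ratio of all genes was 0.32 for A/J over C57BL/6J on high-fat, 0.20 on low-fat, and -0.15 for high-fat over low-fat in C57BL/6J.

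The limma counts of list genes were not stable. The 10 genes higher in A/J became 18 with an intensity trend or without scaling, 2 with strain as the only factor, and 0 with a floor of 200 or no filter. The 1 gene lower in A/J became 0 with a floor of 200 or no filter. The 5 higher on high-fat became 8 with a trend or a pseudocount, 2 without scaling or with quantile normalization, and 0 with diet as the only factor, either other floor, the mean of all probe sets or no filter. The 1 lower on high-fat became 0 under those last settings and also without scaling or with quantile normalization. Where limma called 0 genes with all arrays, 16 to 17 list genes had an unadjusted p under 0.05 for strain and 8 to 22 for diet. Leaving out each array in turn, with 1 factor only, gave 0 to 0 calls of either kind by limma, while 3 to 13 list genes had an unadjusted p under 0.05. A lone array left in a group is there assumed to vary like the others. The cause of these shifts was not tested.

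At 1.5-fold the list genes higher and lower were 11 and 3 for diet in A/J, 14 and 2 for diet in C57BL/6J, 14 for A/J over C57BL/6J on high-fat, and 18 and 2 on low-fat. The 1 gene lower on A/J high-fat became 0 with a floor of 200 or a pseudocount. In C57BL/6J the 5 higher on high-fat became 3 with a floor of 200, and the 1 lower became 0 with the mean of all probe sets and 2 without scaling. Between the high-fat arrays the 5 higher in A/J became 13 without scaling, and the 1 lower became 2 with no filter. No paired analysis was possible because each group had 1 array and so no replicate number to pair; the fit with both terms compares each factor within the levels of the other, and the fits with 1 factor drop this. With 1 array per group, depth and signal over background allow no estimate of error.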
